A study of Mus musculus with 4 samples.

Results

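The genes described here are the 10 genes H19, Igf2, Ascl2, Cd81, Tssc4, Kcnq1, Kcnq1ot1, Cdkn1c, Slc22a18 and Phlda2 of distal mouse chromosome 7, chosen by name among the 22686 genes of the deposited table. They belong to a pair of neighbouring imprinted clusters, the H19-Igf2 cluster and the Kcnq1 cluster. Their expression was measured by allele-specific RNA-seq in female EpiSCs (epiblast stem cells), a pluripotent cell type taken at stage E6.5. Each of 4 libraries had its own combined genotype, with 1 library each. The cells were Smchd1 +/+ or MD1/MD1 with XistdeltaA/+, and Smchd1 +/+ or MD1/MD1 with Xist1lox/+, and values below always follow this order. Every library carried 1 of these Xist mutations, so none was wild type at both genes. Smchd1 encodes a chromatin protein of the inactive X chromosome, and Xist the noncoding RNA that coats it. The labels give C57BL6/J as one parental strain of the cross and an F1 of JF1 and C57BL6/J as the other, which is taken here as the father. How many embryos or lines stand behind a library is unknown here.

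Imprinted genes are transcribed mainly from the allele inherited from 1 parent. In the H19-Igf2 cluster, the control region next to H19 is methylated on the paternal chromosome, where Igf2 is used, while on the maternal chromosome it is bound by CTCF and H19 is used. In the Kcnq1 cluster, the paternal chromosome transcribes the long noncoding RNA Kcnq1ot1, and protein-coding genes on either side of it are repressed there to different degrees, several of them in placenta only.

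The readout was the paternal share, the percentage of reads covering a strain variant (allele-assigned reads) that carried the paternal variant. Allele-assigned reads summed to 7301034 to 8008500 per library. Total expression was given as FPKM, which scales fragments to transcript length and library size. FPKM of Smchd1 was 27.0 and 6.68 in the XistdeltaA/+ pair and 20.9 and 5.98 in the Xist1lox/+ pair, so both MD1/MD1 libraries were low. All 7 listed EpiSC markers were detected at an FPKM of at least 1 in every library, with summed FPKM from 1079 to 1535. The listed fibroblast and macrophage markers were highest in MD1/MD1 XistdeltaA/+. There the 8 fibroblast markers, listed because EpiSCs are often grown on feeder cells, summed to 119.8 against 43.1, 56.6 and 57.9 in the others. The 5 macrophage markers in the table summed to 882.3, against 22.3, 310.0 and 280.3 in the others. By this sum +/+ XistdeltaA/+ also stood apart, as by far the lowest. In bulk RNA, fewer cells of a type and less RNA per cell cannot be told apart.

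A paternal share can be read only where the father passed on the JF1 chromosome, since a C57BL6/J paternal region looks maternal. The 71 neighbouring control genes, which start at or beyond 140 Mb of chromosome 7 (mm9), are on neither imprinted list and hold 20 or more such reads in each library, answered this. Their median paternal share was 51.1%, 49.4%, 49.2% and 49.4% in the 4 libraries. Their quartiles lay between 42.9% and 56.6%. Both parental alleles were therefore seen around the clusters in all 4 libraries.

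Of the closest controls, Nadsyn1, an enzyme of NAD synthesis, lay at 52.9%, 51.9%, 48.8% and 53.1%. Cttn, which encodes the actin-binding protein cortactin, lay at 48.2%, 44.2%, 49.4% and 47.3%. Dusp8, a phosphatase of MAP kinases, ranged from 41.8% to 62.7%. These genes flank the clusters at or near equal use of both alleles.

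Not every close control was near 50%. Ctsd, the lysosomal protease cathepsin D, whose start lies at -199.6 kb from that of H19, had shares of 41.8%, 10.5%, 26.2% and 24.1%. Its FPKM was 179.8, 535.7, 252.0 and 228.5, so the library with the highest level had the lowest share. Lsp1, a cytoskeletal protein of leukocytes, lay at 22.2%, 12.5%, 21.5% and 22%, and the receptor gene Mrgpre at 16.9%, 8.75%, 26.1% and 19.2%. All of these shares were under 50%. The lowest control was Fgf4 in each library (1.13%, 0.465%, 0% and 0.270%), a growth factor gene named after its values were seen. No control reached 90%.

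**Figure D1:**
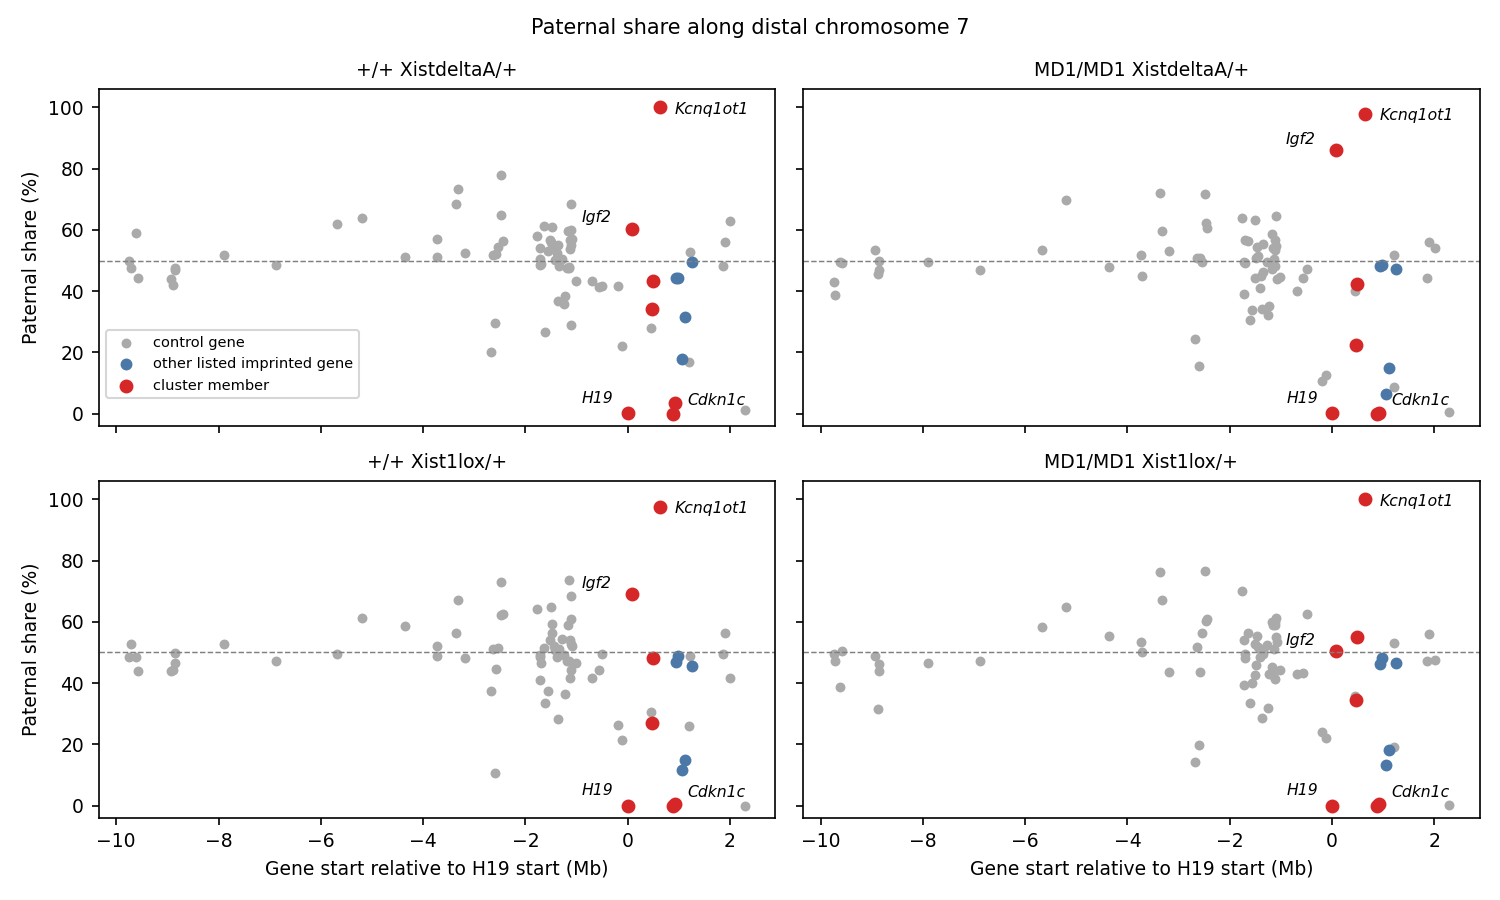
Paternal share (%) of each gene against the distance of its start from the start of H19 (Mb), 1 panel per library. Grey points are control genes, red points the 7 cluster genes and blue points other listed imprinted genes with at least 20 reads in every library, and the controls scatter around 50% in every panel while Kcnq1ot1 sits at the top and H19, Cdkn1c and Phlda2 at the bottom.

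Of the 10 genes, 8 had a deposited share. Kcnq1, with 3 to 7 allele-assigned reads per library, and Ascl2, with 1 to 4, had none. At least 20 allele-assigned reads were available for 7, 7, 8 and 7 genes. Of these, 3, 3, 4 and 3 had a share of at most 10%, here called the maternal side, and 1 in each library had a share of at least 90%. Across autosomal genes of regions with both alleles, which are windows of 10 Mb with a median share of at least 30%, the maternal side held 1.51%, 3.68%, 2.59% and 3.04% of genes. The paternal side held 0.644%, 0.523%, 0.642% and 0.574%. Over all autosomal genes, which include regions of C57BL6/J paternal origin, these were 20.7%, 18.3%, 28.5% and 24.4%, and 0.525%, 0.437%, 0.467% and 0.443%. On the maternal side in all 4 libraries were H19, Cdkn1c and Phlda2, 3 of the 7 genes with enough reads in each, against a background of 0.723% (1.52% over all autosomal genes). On the paternal side in all 4 was Kcnq1ot1, 1 of 7, against 0.278% (0.157%). By an exact binomial test against 50%, adjusted by the Benjamini-Hochberg method over all autosomal genes, 6, 6, 7 and 5 genes were called. That test alone separates little here, since it called 41.3%, 47.4%, 40.9% and 40.1% of the genes of such regions and 52.7%, 55.6%, 56.7% and 53.5% of all autosomal genes.

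**Figure D2:**
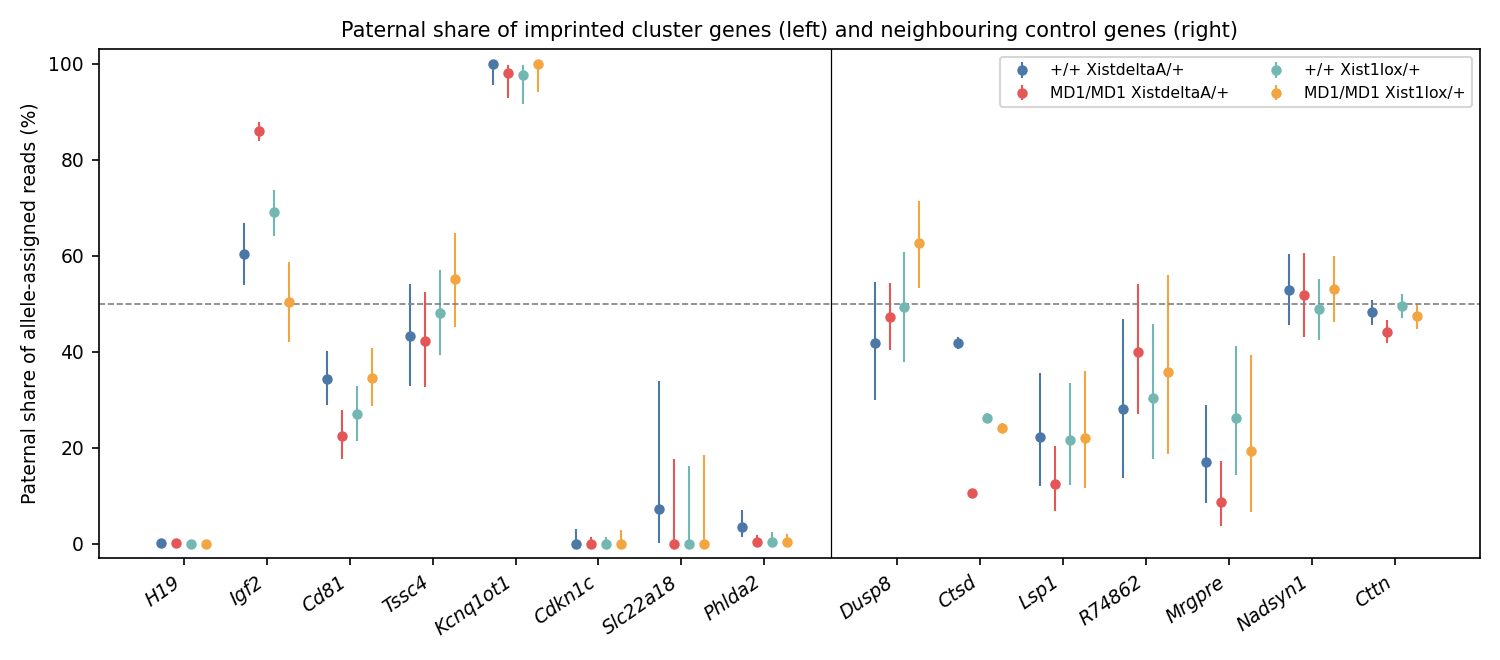
Paternal share (%) of the 8 cluster genes with a deposited share and of 7 named control genes in each library, with exact 95% intervals from read counts. H19, Cdkn1c and Phlda2 lie near 0 and Kcnq1ot1 near 100, while Igf2 moves from 50.3% to 86.0% between libraries.

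H19 (chr7:149761437-149764051, mm9, minus strand), the maternally expressed noncoding RNA, was almost wholly maternal. Paternal reads numbered 1 of 1310, 2 of 3774, 0 of 1061 and 0 of 750. The shares were 0.0763% and 0.0530% in the XistdeltaA/+ libraries, and the counts of 0 allow up to 0.283% and 0.4% in the Xist1lox/+ libraries. No library stood apart in allele use. The exact Clopper-Pearson intervals at 95% used throughout cover counting error only, since PCR reads without molecular identifiers are not independent molecules.

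The level of H19 did differ. Its FPKM was 39.1, 116.9, 30.6 and 22.6. The MD1/MD1 XistdeltaA/+ library was the highest of the 4. H19 was 2.99-fold higher in MD1/MD1 with XistdeltaA/+ and 1.35-fold lower with Xist1lox/+. Because nearly all reads were maternal, the FPKM attributed to the maternal allele followed the total, at 39.0, 116.9, 30.6 and 22.6.

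Igf2 (chr7:149836673-149846940, mm9, minus strand), the fetal growth factor, lies 75.2 kb from H19 and was not strictly paternal in this bulk RNA. Its paternal share was 60.4% (53.9 to 66.7, 142 of 235 reads), 86.0% (83.9 to 87.8, 1091 of 1269), 69.1% (64.1 to 73.7, 259 of 375) and 50.3% (42.0 to 58.7, 74 of 147). The share was highest in MD1/MD1 XistdeltaA/+ and lowest in MD1/MD1 Xist1lox/+, with both +/+ libraries between them. It exceeded 61, 71, 69 and 39 of the 71 controls.

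The share of Igf2 thus moved in opposite directions with Smchd1 genotype. With XistdeltaA/+ it was 25.5 points higher in MD1/MD1 (95% Newcombe interval 19.2 to 32.2, Fisher's exact test, adjusted p = 4.79e-17). With Xist1lox/+ it was 18.7 points lower (difference -18.7, -27.9 to -9.40, Fisher's exact test, adjusted p = 0.000249). A test of both changes against each other, Zelen's exact test of equal odds ratios, gave an adjusted p of 1.41e-16. Fisher's and Zelen's tests were two-sided, adjusted over all genes with enough reads, and with 1 library per genotype they compare those libraries, not the conditions. Between the Xist mutations, the share was 8.64 points higher with Xist1lox/+ in +/+ (0.897 to 16.4, Fisher's exact test, adjusted p = 0.122). In MD1/MD1 the difference was -35.6 points (-43.8 to -27.4, Fisher's exact test, adjusted p = 1.42e-20).

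In regions with both alleles, 3.9% of genes had a higher and 15.3% a lower share by the same test in the XistdeltaA/+ pair (17.3% and 19.9% of all genes). Of the 7 testable cluster genes, 1 was higher (Igf2) and 2 were lower (Cd81 and Phlda2). In the Xist1lox/+ pair the background was 4.04% higher and 5.2% lower (20.7% and 15.9% of all genes), and 1 cluster gene, Igf2, was lower. Between the Xist mutations 0 cluster genes passed in +/+, where 4.61% of genes were higher and 6.07% lower with Xist1lox/+ (8.62% and 16.4% of all genes). In MD1/MD1, Cd81 was higher and Igf2 lower with Xist1lox/+, against 9.42% and 3.1% (13.4% and 15.6% of all genes). Zelen's test called 12.6% of genes of such regions, 26% of all genes, and 2 of the 7 cluster genes, Igf2 and Cd81.

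Igf2 levels had the same order as its shares. FPKM was 6.79, 35.7, 11.9 and 4.14, again highest in MD1/MD1 XistdeltaA/+ and lowest in MD1/MD1 Xist1lox/+. Multiplying FPKM by the share attributed 4.10, 30.7, 8.25 and 2.09 to the paternal allele. The maternal allele was attributed 2.69, 5.01, 3.70 and 2.06. Across libraries the paternal amount thus differed up to 14.7-fold and the maternal up to 2.43-fold. In the XistdeltaA/+ pair the paternal amount was 7.48-fold higher in MD1/MD1 and the maternal 1.86-fold higher. In the Xist1lox/+ pair the paternal amount was 3.96-fold lower and the maternal 1.80-fold lower. Both alleles moved the same way within each pair, and the paternal one moved more.

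**Figure D3:**
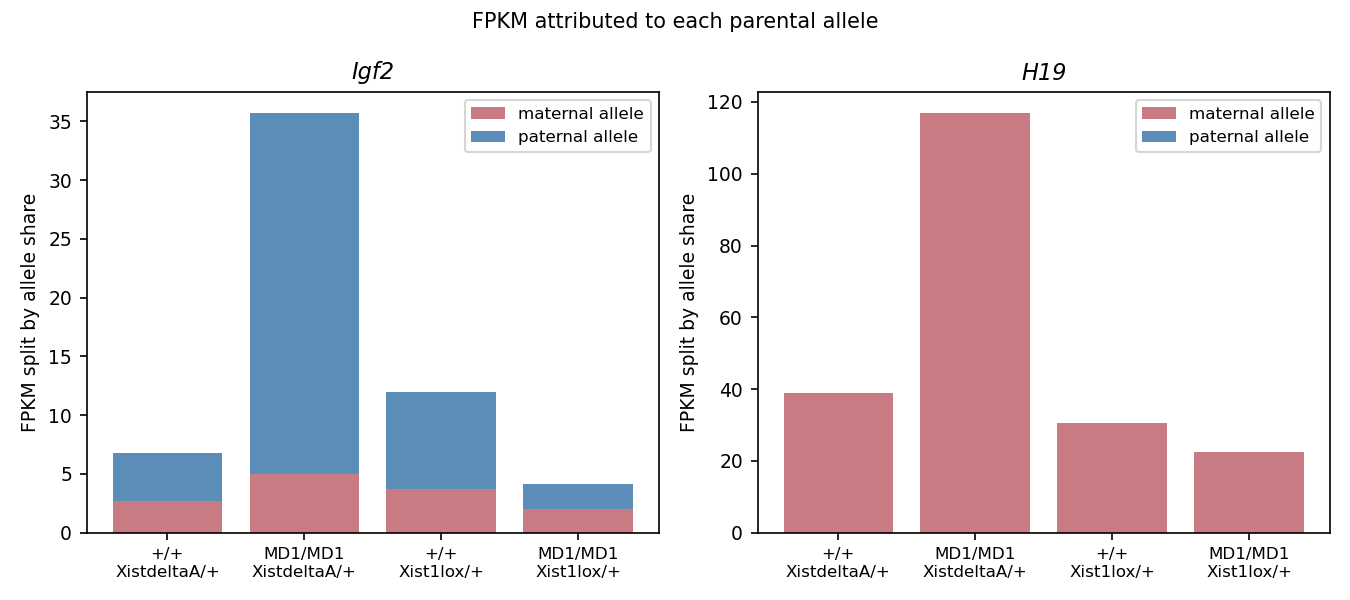
FPKM of Igf2 and H19 in each library, split by the paternal share of allele-assigned reads (bars start at 0, 1 library per bar, no replicates). The paternal segment of Igf2 goes from 2.09 to 30.7 between the MD1/MD1 libraries, and H19 has no visible paternal segment.

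H19 and Igf2 were both highest in the library where the fibroblast and macrophage markers were highest. For the fibroblast list, 5 of 8 genes were at least 2-fold higher in MD1/MD1 with XistdeltaA/+ on log2(FPKM + 1), against 3.91% of all genes. Thy1 (1.62-fold) and Dcn (1.15-fold) rose less, and Postn was lower, at 2.03 and 1.54 FPKM. The sum of the list was 2.78-fold higher in that pair and 1.02-fold in the Xist1lox/+ pair. None of its genes was listed at 0 in any library. Macrophage marker sums had ratios of 39.5 and 0.904. The first ratio rested mostly on Lyz2, at 0.384, 799.1, 273.9 and 246.6 FPKM. Tyrobp was at 0, 43.0, 15.1 and 14.1, and Cd68 at 21.7, 34.6, 19.3 and 18.1. On log2(FPKM + 1), 3 of the 4 tested macrophage markers were at least 2-fold higher in MD1/MD1 with XistdeltaA/+, and Cd68 was 1.57-fold higher. Trophoblast markers summed to 5.97, 12.1, 5.26 and 1.78, the same high and low libraries as Igf2. Krt7 (2.55, 5.34, 3.53 and 0.424) and Hand1 (0.372, 5.19, 0.277 and 0.189) had this pattern. Tfap2c did not, being highest in +/+ XistdeltaA/+ (3.02, 1.51, 1.45 and 1.14). Tpbpa was listed at 0 in all 4 and Cdx2 at 0 in 3, and Elf5 reached at most 0.0278. Extraembryonic endoderm markers summed to 6.33 to 8.64 and mesoderm markers to 2.54, 1.76, 1.24 and 1.49. The part of other cells in the levels and paternal shares of the cluster genes was not tested.

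The allele use of those marker genes was also measured, for markers with at least 20 reads in a region with both alleles. Of the fibroblast markers, 5 of 5 in MD1/MD1 XistdeltaA/+ lay more than 5 points below the median of their own region, as did 6 of 6, 4 of 5 and 6 of 6 in the other libraries. Col1a2, a collagen chain, had shares of 4.85%, 1.99%, 7.56% and 1.69%, and the macrophage lysozyme gene Lyz2 had 0.0265% in MD1/MD1 XistdeltaA/+. In that library the fibroblast markers lay at 1.99% to 37.5% and the macrophage markers at 0.0265% to 41.7%, 4 of 4 of them below their regions. The EpiSC markers lay at 21.1% to 89.9%, with 1 of 5 more than 5 points below its region. The Igf2 share there was 86.0%, and how far it reflects other cells was not tested. Of the named controls, Ctsd, Lsp1, Mrgpre and Cttn had their lowest shares in MD1/MD1 XistdeltaA/+. Dusp8 and Nadsyn1 lay between, and R74862, a control that overlaps Cd81, had its highest (40%). Of the cluster genes, Cd81, Tssc4 and Phlda2 were lowest there as well, Igf2 was highest, and H19 and Kcnq1ot1 lay between. Cdkn1c had 0 paternal reads in every library. The rank of Phlda2 rested on 1 paternal read of 323, against 1 of 232 and 1 of 268 in the Xist1lox/+ libraries. Tssc4 differed from +/+ XistdeltaA/+ by only -1.03 points (-14.7 to 12.7). In the XistdeltaA/+ pair 15.3% of genes of regions with both alleles were lower in MD1/MD1 by Fisher's exact test, and 3.9% higher.

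**Figure D4:**
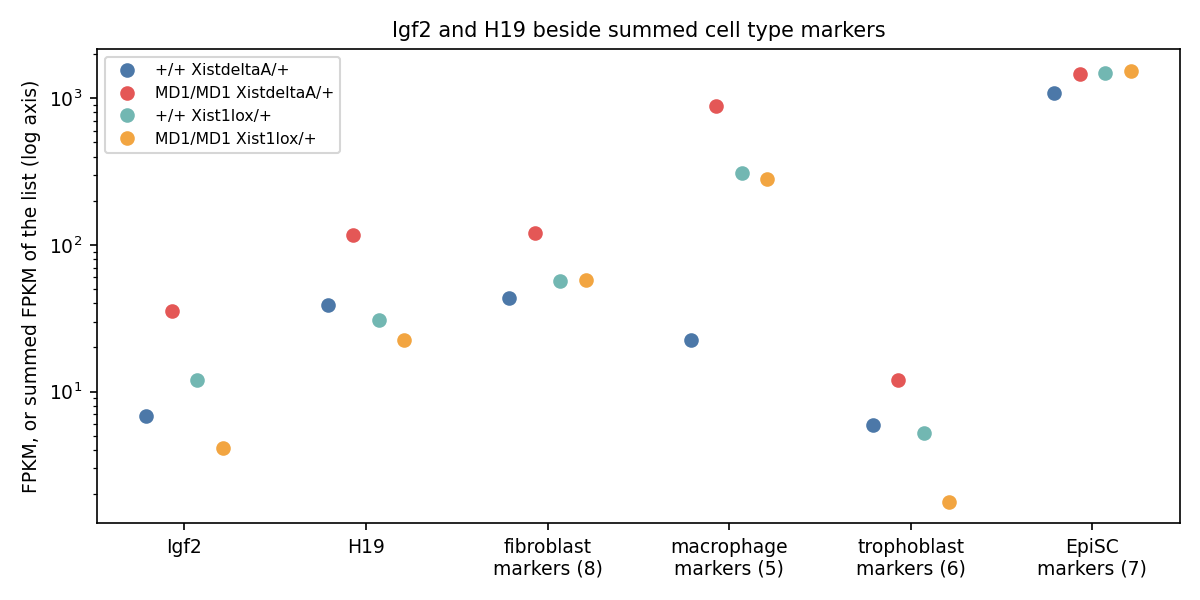
FPKM of Igf2 and H19 and summed FPKM of cell type marker lists (log axis), 1 point per library. MD1/MD1 XistdeltaA/+ is the highest library for every item drawn but the EpiSC markers. The mesoderm markers, not drawn, were highest in +/+ XistdeltaA/+.

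The genes with the most similar profile over the 4 libraries, by Euclidean distance of centred log2(FPKM + 1) among 11470 genes, were Cryab (0.253), Gprc5a (0.387) and Hand1 (0.498) for H19. For Igf2 they included Gprc5a (0.494) and Tslp (0.731). Cryab encodes a small heat shock protein and Hand1 a transcription factor of trophoblast and heart. Igf2 was also 1 of 3 genes, 0.0262% of 11471, at least 2-fold higher in MD1/MD1 with XistdeltaA/+ and at least 2-fold lower with Xist1lox/+ on the same scale. The others were Pon2 and Isoc2a, and all 3 were singled out after their values were seen.

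In the Kcnq1 cluster, Kcnq1ot1 (chr7:150399016-150482452, mm9, minus strand) was read from the paternal chromosome. Paternal reads numbered 82 of 82, 96 of 98, 81 of 83 and 61 of 61, shares of 100%, 98.0%, 97.6% and 100%. It exceeded all 71 controls in every library, and 0 of the 4 pairwise Fisher tests passed. Its FPKM was 0.0600, 0.0646, 0.0569 and 0.0555, the most even of the 10 genes. The gene spans 83437 bases inside Kcnq1 on the opposite strand, and no source used here says whether strand was used in counting. Reads of Kcnq1 and Kcnq1ot1 therefore cannot be told apart with certainty.

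Kcnq1 (chr7:150293159-150612947, plus strand), a potassium channel subunit, was low at 0.196, 0.0921, 0.0786 and 0.170 FPKM. With 3 to 7 allele-assigned reads its allele use was not detectable at this depth. Ascl2 (chr7:150152727-150155169, minus strand), a transcription factor of the trophoblast lineage, was at 0.233, 0.655, 0.805 and 0.662 FPKM with 1 to 4 such reads. Both lay under an FPKM of 1 in all libraries.

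Start regions of the cluster were taken from RefSeq (build GRCm38.p6), which matched 7 of the 10 genes by symbol. They are shown for a paternal gene, a maternal gene and a gene read from both alleles, with CG dinucleotides in capitals because the clusters are regulated by CpG methylation, which was not measured here. Each run covers 250 bases before to 50 after the start, 5′ to 3′ on the gene's strand, at chr7:143296498-143296797 (minus strand), chr7:143502475-143502774 (minus strand) and chr7:143069118-143069417 (plus strand).
Kcnq1ot1: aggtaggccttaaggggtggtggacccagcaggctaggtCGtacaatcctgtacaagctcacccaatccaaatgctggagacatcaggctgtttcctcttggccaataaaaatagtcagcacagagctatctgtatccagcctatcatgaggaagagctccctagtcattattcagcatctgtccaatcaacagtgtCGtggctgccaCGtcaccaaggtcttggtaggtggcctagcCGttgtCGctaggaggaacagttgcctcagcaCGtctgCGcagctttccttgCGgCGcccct
Phlda2: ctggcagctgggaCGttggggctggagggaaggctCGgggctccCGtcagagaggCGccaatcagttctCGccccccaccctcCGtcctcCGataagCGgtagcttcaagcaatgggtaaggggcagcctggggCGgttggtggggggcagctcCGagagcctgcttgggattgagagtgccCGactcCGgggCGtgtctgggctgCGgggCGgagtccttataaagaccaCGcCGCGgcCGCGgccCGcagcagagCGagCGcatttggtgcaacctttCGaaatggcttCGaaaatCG
Tssc4: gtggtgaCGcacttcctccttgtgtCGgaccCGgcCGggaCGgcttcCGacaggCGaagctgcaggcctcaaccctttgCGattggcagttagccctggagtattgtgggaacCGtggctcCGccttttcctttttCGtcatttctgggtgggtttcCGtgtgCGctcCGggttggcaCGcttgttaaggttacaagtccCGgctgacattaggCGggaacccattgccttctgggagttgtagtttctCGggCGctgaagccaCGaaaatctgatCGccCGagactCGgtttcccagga
Kcnq1ot1 had 9 CG dinucleotides, Phlda2 26 and Tssc4 23, against a median of 7 over 32851 such windows. The letters CCAAT, searched on both strands (CCAAT or ATTGG), occurred 3 times for Kcnq1ot1 and 1 time for each of the others. Of all windows, 37.4% held at least 1 match and 3.37% at least 3. A match describes the letters only. The maternal Phlda2 and the biallelic Tssc4 were alike in CG count, and whether this count goes with allele use was not tested. The window of Ascl2, not shown, also held 3 CCAAT matches.

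Cdkn1c (chr7:150644244-150646955, minus strand), the cyclin-dependent kinase inhibitor p57 and a growth restrictor, had 0 paternal reads in all 4 libraries, of 115, 252, 266 and 129. This allows shares of up to 2.61%, 1.19%, 1.13% and 2.33%. Its FPKM was 13.7, 25.001, 27.6 and 13.6, with MD1/MD1 XistdeltaA/+ and +/+ Xist1lox/+ high and the others low. The log2(FPKM + 1) ratio of MD1/MD1 over +/+ was 0.82 with XistdeltaA/+ and -0.97 with Xist1lox/+. Between the Xist mutations it was 0.96 in +/+ and -0.83 in MD1/MD1. Cdkn1c therefore went in opposite directions in the pairs, as Igf2 did, with no ratio reaching 2-fold on this scale.

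Phlda2 (chr7:150687453-150688429, minus strand), a restrictor of placental growth, was also maternal. Paternal reads numbered 7 of 199, 1 of 323, 1 of 232 and 1 of 268, shares of 3.52%, 0.310%, 0.431% and 0.373%. The +/+ XistdeltaA/+ library was the highest. The share in MD1/MD1 differed from it by -3.21 points (-6.78 to -0.911, Fisher's exact test, adjusted p = 0.0178), and by -0.0579 points in the Xist1lox/+ pair (-2.05 to 1.69, Fisher's exact test, adjusted p = 1). FPKM was 62.2, 108.8, 89.5 and 98.4, lowest in +/+ XistdeltaA/+. Phlda2 had the highest mean level of the 10 genes.

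Slc22a18 (chr7:150659660-150685237, plus strand), an organic cation transporter, lies between Cdkn1c and Phlda2. It had 1 paternal read of 14, then 0 of 19, 0 of 21 and 0 of 18. The first share was 7.14%, and the 0 counts allow up to 15.8%, 14.3% and 16.7%. Only in +/+ Xist1lox/+ did it reach 20 reads, where it counted on the maternal side. Its FPKM stayed between 0.873 and 1.26.

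Cd81 (chr7:150238655-150253835, plus strand), a tetraspanin of the cell surface, was read from both alleles with more maternal reads. Its paternal share was 34.3% (28.8 to 40.04), 22.5% (17.7 to 27.8), 26.9% (21.5 to 33.0) and 34.6% (28.6 to 40.9), on 289, 280, 245 and 246 reads. All 4 shares were under 50%, and MD1/MD1 XistdeltaA/+ was the lowest. The share was lower than in all but 8, 5, 5 and 10 of the 71 controls. In MD1/MD1 it differed by -11.8 points with XistdeltaA/+ (-19.0 to -4.35, Fisher's exact test, adjusted p = 0.00698) and by 7.61 points with Xist1lox/+ (-0.550 to 15.6, Fisher's exact test, adjusted p = 0.182). Zelen's exact test of both changes gave an adjusted p of 0.00355. Between the Xist mutations in MD1/MD1 the difference was 12.1 points (4.33 to 19.7, Fisher's exact test, adjusted p = 0.0103).

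The level of Cd81 was even, at 98.4, 87.3, 81.2 and 82.4 FPKM. The FPKM attributed to its paternal allele was 33.7, 19.6, 21.9 and 28.5, and to its maternal allele 64.7, 67.7, 59.3 and 53.9. Cd81 overlaps R74862 by 937 bases on the opposite strand, so reads there are uncertain. R74862 had shares of 28.1%, 40%, 30.4% and 35.7% on 28 to 55 reads. Cd81 was called lower in MD1/MD1 of the XistdeltaA/+ pair by Fisher's exact test, as were 15.3% of genes in regions with both alleles.

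Tssc4 (chr7:150255273-150256992, plus strand), a gene of spliceosome assembly next to Cd81, was read from both alleles at 43.3%, 42.3%, 48.1% and 55.1% on 90, 104, 131 and 107 reads. None of the 4 shares differed from 50% by the exact binomial test with adjustment. In MD1/MD1 the share differed by -1.03 points with XistdeltaA/+ (-14.7 to 12.7) and by 7.05 points with Xist1lox/+ (-5.65 to 19.4). Its FPKM was 27.8, 26.1, 34.5 and 29.5.

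**Figure D5:**
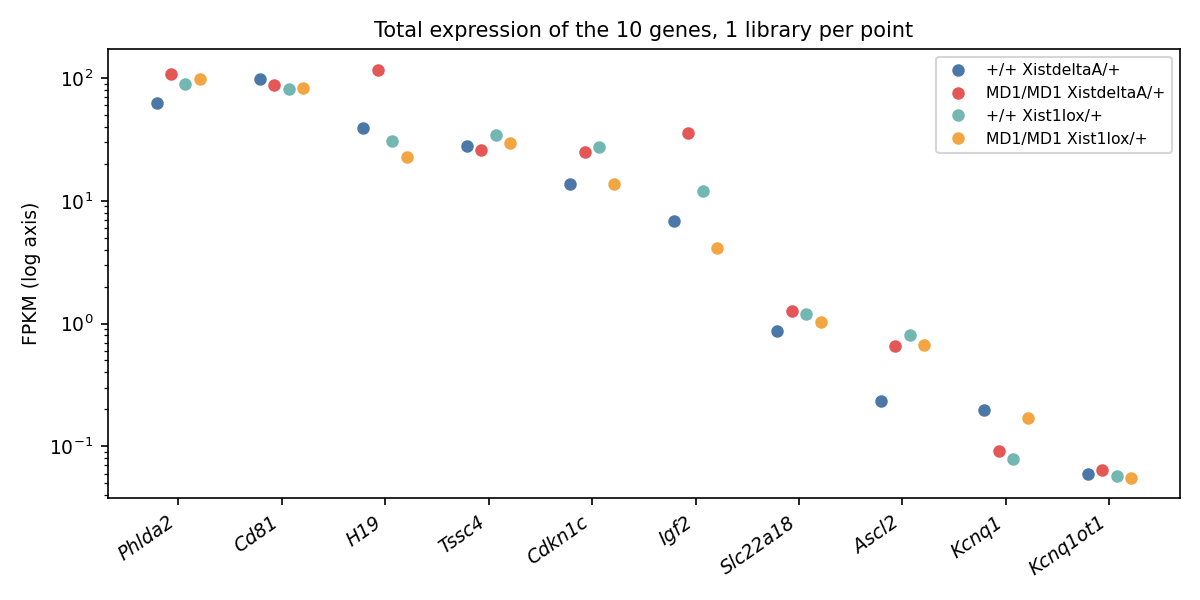
FPKM of the 10 genes (log axis), 1 point per library, ordered by mean level. H19 and Igf2 are spread most widely in FPKM and are highest in MD1/MD1 XistdeltaA/+, while Kcnq1ot1 and Cd81 are nearly level.

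By mean FPKM the genes ranked Phlda2 (89.7), Cd81 (87.3), H19 (52.3), Tssc4 (29.5), Cdkn1c (19.98), Igf2 (14.6), Slc22a18 (1.09), Ascl2 (0.589), Kcnq1 (0.134) and Kcnq1ot1 (0.0592). The ranges over libraries overlapped between each pair of neighbours from Phlda2 to Igf2, and did not overlap between neighbours from Igf2 down. The highest library was 8.62 times the lowest for Igf2 and 5.17 times for H19, against 1.21 for Cd81 and 1.16 for Kcnq1ot1.

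Total expression was tested for the 7 genes whose mean FPKM reached 1, in a limma fit of log2(FPKM + 1) on Smchd1 genotype and Xist mutation over all 4 libraries. Of these 7, 0 were called for either factor. Over all 11471 genes limma called 0.0174% higher and 0.0174% lower for Smchd1, and 0% in either direction for Xist, with unadjusted p under 0.05 for 3.26% and 3.21%. edgeR on allele-assigned reads called 5 genes (0.043%) and 0 genes. The fit has 1 residual degree of freedom, which holds the difference between both pairs, so genes that move in opposite directions have large errors. For Igf2 the Smchd1 difference was 0.45 (SE 0.80, limma adjusted p = 0.959) and for H19 it was 0.57 (SE 0.46, limma adjusted p = 0.937). H19 for Xist1lox/+ against XistdeltaA/+ was -1.33 (SE 0.46, limma adjusted p = 0.927). For Phlda2 the Smchd1 difference was 0.47 (SE 0.21, limma adjusted p = 0.937). Fits that left out 1 library held only the factor tested and assumed that the lone sample of an arm varies like the others. Without +/+ XistdeltaA/+ the Xist difference of H19 was called, at -2.11 (limma adjusted p = 0.00320), among 322 genes called. Without MD1/MD1 XistdeltaA/+ that of Phlda2 was called, at 0.59 (limma adjusted p = 0.0364), among 891 genes called. Leaving out MD1/MD1 XistdeltaA/+ also turned the Smchd1 difference of H19 to -0.59 and that of Igf2 to -0.97.

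Within pairs, folds were counted on the log2(FPKM + 1) scale. On it 2 of the 7 genes (H19 and Igf2) were at least 2-fold higher in MD1/MD1 with XistdeltaA/+, against 3.91% of all genes, and 0 were lower, against 1.82%. With Xist1lox/+ 1 gene (Igf2) was at least 2-fold lower, against 0.375%, and 0 were higher, against 0.445%. Between the Xist mutations in +/+, 0 passed in either direction (background 1.73% higher and 1.4% lower). On plain FPKM Cdkn1c would join these counts, as 2.02-fold lower in MD1/MD1 with Xist1lox/+ and 2.01-fold higher with Xist1lox/+ in +/+. In MD1/MD1, H19 and Igf2 were at least 2-fold lower with Xist1lox/+, against 2.17%, and 0 were higher, against 0.323%. The median log2 ratio of the 7 genes was 0.80 with XistdeltaA/+ and -0.22 with Xist1lox/+, beside -0.048 and 0.0040 over all genes. No cluster gene passed 2-fold in the same direction in both pairs, as 0.131% of genes did upward and 0.113% downward for Smchd1, and 0.0262% and 0.061% for Xist.

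Of 17 other genes of distal chromosome 7 listed as imprinted in some tissue, 15 were in the table, and 0 of the 7 tested were called by limma. Nctc1, Ins2, Tspan32 and Krtap5-5 were listed at 0 in all libraries. Nap1l4, a histone chaperone gene beyond Phlda2, lay at 44.2%, 48.3%, 46.9% and 46.2%. Cars, the cysteinyl-tRNA synthetase gene, lay at 44.4%, 48.6%, 49.0% and 48.2%, and Dhcr7, an enzyme of cholesterol synthesis, at 49.7%, 47.1%, 45.6% and 46.6%. These genes beyond Phlda2 were thus read from both alleles in nearly equal parts.

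Osbpl5 and Tnfrsf22, which start beyond Cars, had lower shares. Osbpl5, a lipid transfer protein gene, lay at 31.6%, 15.0%, 14.8% and 18.2%, lower in MD1/MD1 with XistdeltaA/+ by Fisher's exact test (-16.6 points, -28.6 to -5.02, adjusted p = 0.0165). Tnfrsf22, a decoy receptor gene, lay at 17.9%, 6.49%, 11.8% and 13.3%. Tnfrsf23, its neighbour, was at 0.450, 2.58, 1.01 and 0.736 FPKM. Of the 7 tested genes of the list it alone was at least 2-fold higher in MD1/MD1 with XistdeltaA/+, against 3.91% of all genes. This is on the log2(FPKM + 1) scale, and on plain FPKM Osbpl5 also passed in that pair, at 1.59 and 3.32. On the log2 scale Cars was at least 2-fold higher with Xist1lox/+ in +/+ (30.6 and 70.0 FPKM), against 1.73%. Tnfrsf23 was at least 2-fold lower with Xist1lox/+ in MD1/MD1, against 2.17%. Igf2os, antisense to Igf2, had enough reads for a share in 1 library, MD1/MD1 XistdeltaA/+, with 10 of 12 reads paternal. Its overlap with Igf2 on the opposite strand spans 1343 bases, so those reads are uncertain.

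Regulators known to maintain imprints stayed within 2-fold where tested. Of 13 listed, 11 were tested and 0 were called by limma or passed 2-fold in any pair. Trim28, a corepressor that keeps methylation at imprints, had an FPKM of 363.9, 398.9, 447.6 and 443.4. Uhrf1, which recruits the maintenance methyltransferase, was at 82.4 to 95.2, and Ezh2, the methyltransferase of Polycomb complex 2, at 77.6 to 96.0. Ctcf was at 52.8, 40.5, 36.8 and 43.9. Suz12 had the widest range of the 11 tested, at 51.1, 36.9, 32.8 and 38.7. The remaining listed regulators had a mean FPKM under 1 and were not tested.

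Of 14 listed genes of IGF2 signalling, 13 were tested and 0 were called by limma. On the log2(FPKM + 1) scale 2 were at least 2-fold higher and 1 lower in MD1/MD1 in the XistdeltaA/+ pair, against 3.91% and 1.82% of all genes. In the Xist1lox/+ pair 0 passed, against 0.445% and 0.375%. Igfbp4, a binding protein of IGFs, was at 5.81, 39.1, 14.7 and 14.8 FPKM, and Irs2, an adaptor of the insulin and IGF receptors, at 16.2, 43.1, 15.9 and 17.1. Igfbp2 was the lower one, at 1417, 647.9, 916.0 and 832.7. The imprinted adaptor gene Grb10 was at 149.1, 109.1, 125.4 and 117.8, and Igfbp3 at 306.3, 230.3, 222.2 and 281.6. Igfbp5 was at 20.6, 11.4, 6.69 and 13.6, past 2-fold in the Xist1lox/+ pair on plain FPKM only. The receptor Igf1r ranged from 6.45 to 11.4, and Igf2r, which clears IGF2, from 12.2 to 20.3.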

How the data were processed

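RNA of 4 EpiSC libraries, 1 per combined genotype, was made into libraries with a stranded mRNA kit, per the labels. Cufflinks 2.2.1, Cuffdiff and the build mm9 are named in the submitters' processing notes. No source used here gives the aligner, the variant list or the annotation. Per the file headers, the authors deposited for each gene the count of allele-assigned reads, the fraction of them that is paternal, and FPKM. The deposited fraction is given from 10 reads, and times the count it gave whole reads for 100% of values (tolerance 1e-06). A further 6 columns belong to no sample of the series and were not used.

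Shares were computed per library (scipy 1.17.1), with exact intervals at 95%, a minimum of 20 reads for tests, and 3 counts as the limit a count of 0 allows. Fisher's, binomial and Zelen's exact tests were adjusted by Benjamini-Hochberg over all genes tested, with the threshold at 0.05. Log2(FPKM + 1) of genes whose mean FPKM reached 1 was fitted with limma 3.58.1 with a trend. Fold changes on that scale are understated for low genes. limma on FPKM was the main test, as the allele-assigned counts cover strain variants only. edgeR 4.0.16 on these counts was an alternative. Others were other read minimums, thresholds, pseudocounts, filters and scaling, and leaving out each library. p-values from 4 libraries measure the spread between them, which may be technical. Share tests, limma and edgeR were tested on simulated data.

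Coordinates are mm9, counted from 1, except those of the start regions. Named were all 10 genes, the 3 closest controls on each side and R74862 inside the clusters, list members that pass a test or the 2-fold rule in both pairs or else the 3 highest, and, for genes with a log2 range of at least 1, the 3 nearest profiles. One of these neighbours is not reported here. Other names were chosen after their values were seen: Fgf4, Col1a2, Lyz2, Tnfrsf23, Igf2os, Ctcf, Igfbp4, Igfbp5, Irs2, Igf1r and Igf2r. So were Thy1, Dcn, Postn, Krt7, Tfap2c, Elf5 and Suz12. The genes and lists were chosen with earlier results of these data known. The background of both-allele windows, Zelen's test and the marker shares were added after seeing the data.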

Additional observations from a re-analysis of the deposited data

Results flagged for a closer look

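The change of the paternal share of Igf2 with Smchd1 genotype differed between the Xist mutations, with 25.5 points in the XistdeltaA/+ pair and -18.7 points in the Xist1lox/+ pair (Zelen's exact test, adjusted p = 1.41e-16). For Cd81 the changes were -11.8 and 7.61 points (Zelen's exact test, adjusted p = 0.00355). The same test called 12.6% of genes of regions with both alleles.

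The log2(FPKM + 1) ratios of MD1/MD1 over +/+ had opposite signs in both pairs for 5 genes, and this difference was not tested. The ratio with XistdeltaA/+ minus that with Xist1lox/+ was 3.57 for Igf2, 1.98 for H19 and 1.79 for Cdkn1c. It was 0.39 for Slc22a18 and -0.19 for Cd81, where both ratios were small.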

How the results depend on the processing

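No paired analysis was possible because each combined genotype has 1 library and the labels carry no replicate numbers. The paternal share calls of the cluster genes kept their side of the threshold with minimums of 10 or 50 reads, for the genes that had enough reads. The minimum changes only which genes are adjusted together. The shares and their directions could not change, so this was no check of them. The log2 FPKM ratios of 7 cluster genes kept their sign in 28 of 28 cases with quantile normalization. A pseudocount of 0.1 changes the size of a ratio but cannot change its sign, so it was no check of direction. With windows of a median share of at least 40%, chosen after seeing the data, the maternal side held 1.5% to 3.55% of genes. Over all genes, limma called 4 genes for Smchd1 and 0 without a filter on low FPKM. With each library left out in turn and 1 factor in the fit, where a lone sample is assumed to vary like the others, it called 9 to 24 (11 without MD1/MD1 Xist1lox/+, 14 without +/+ XistdeltaA/+). For Xist these fits called 0 to 891 genes (322 without +/+ XistdeltaA/+) and 0 to 1 cluster genes, against 0. Genes past 2-fold in both pairs numbered 15 higher and 13 lower for Smchd1 and 3 and 7 for Xist. With a pseudocount of 0.1 they were 28 and 22, then 8 and 26. At 1.5-fold they were 44 and 54, then 30 and 58. The cause was not tested.

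Small Smchd1 differences turned sign. edgeR gave Cd81 0.011 (TMM) and 0.021 (RLE) and Cdkn1c 0.072 and 0.082, and quantile normalization gave Slc22a18 -0.046. Leaving out each library in turn, the Smchd1 difference ranged from -0.97 to 1.87 for Igf2, -0.59 to 1.73 for H19, -0.55 to 0.41 for Cdkn1c (0.34 without MD1/MD1 Xist1lox/+), -0.21 to 0.062 for Cd81 and -0.039 to 0.19 for Slc22a18 (-0.0034 without MD1/MD1 XistdeltaA/+). The Xist difference ranged from -2.17 to 0.067 for Igf2, -0.42 to 0.55 for Cdkn1c (-0.35 without +/+ XistdeltaA/+), -0.21 to 0.59 for Phlda2 and -0.10 to 0.17 for Slc22a18 (-0.024 without +/+ Xist1lox/+). Depth limits Kcnq1, Ascl2 and Slc22a18 most.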
